A study of Homo sapiens with 12 samples.

Results

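The protein-coding genes of the small subunit of the cytosolic ribosome were described in DLD1 cells, an established human colorectal cancer cell line. They were taken by gene symbol from the authors' table of expression values, which held 28 of them among 58302 genes. The libraries labelled shNAT10 came from cells with a short hairpin RNA against NAT10, and the libraries labelled shNC from cells with the control hairpin; all cells were at passage 5. NAT10 adds an acetyl group to cytidines of RNA, which makes N4-acetylcytidine (ac4C). For each hairpin 3 input libraries were made from 100 µg of total RNA cut to fragments of 100 to 200 nt and read as pairs of 150 bp, and 3 more were immunoprecipitated with an antibody to ac4C. The expression table covered the 6 input libraries. The immunoprecipitated libraries were read here only through the authors' deposited list of peaks. The labels do not say whether a hairpin line was a clone or a pool, or whether replicates grew as separate cultures. The p-values therefore rest on the spread between these samples, which may be technical. In limma, the test used for each gene, that spread is drawn largely from other genes at a similar level.

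The small subunit binds the mRNA, scans it for the start codon and hosts the decoding centre where codons are read. Its proteins surround the 18S rRNA, which NAT10 itself acetylates in human cells. Most mRNAs for ribosomal proteins start with a cytidine followed by a run of pyrimidines, the 5′ terminal oligopyrimidine (TOP) tract. The mTOR pathway and the RNA-binding protein LARP1 control the translation of these mRNAs through this tract. Dividing cells, colorectal cancer cells among them, hold these mRNAs among their most abundant transcripts.

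The starts of the genes are shown first, because the TOP tract is what most of the mRNAs have in common. Each line runs from 10 bases before to 15 bases from the annotated start, taken from RefSeq (GRCh38.p14), with the tract in capitals. The first group holds a tract, the second none.
RPSA, chr3:39406710-39406734, plus strand: tgccgcctgtCTTTTCCgtgctacc
RPS3A, chr4:151099618-151099642, plus strand: cccacttccgCCCTTTTggctctct
RPS6, chr9:19380222-19380246, minus strand: gaagttggccCTCTTTTCCgtggcg
RPS12, chr6:132814559-132814583, plus strand: cggatgaggcCTCTTTCCCTgccgc
RPS14, chr5:150449725-150449749, minus strand: ccctcccactCTCTCTTTCCggtgt
RPS18, chr6:33272065-33272089, plus strand: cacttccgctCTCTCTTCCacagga
RPS19, chr19:41860245-41860269, plus strand: ccccgtcgttCCCTTTCCCCTggct
RPS21, chr20:62387093-62387117, plus strand: ctagctgcttCCTTTCTCTCTCgcg
RPS23, chr5:82278340-82278364, minus strand: cggtgcttctCTCTTTCgctcaggc
RPS24, chr10:78033853-78033877, plus strand: aatcgtggttCTCTTTTCCTCCTTg
RPS25, chr11:119018329-119018353, minus strand: gcagcgcttcCTTTTTgtccgacat
RPS4X, chrX:72277234-72277258, minus strand: ctccagccccaatttctacgcgcac
RPS26, chr12:56041908-56041932, plus strand: acataacctcgattttcttccgcca
RPS29, chr14:49598696-49598720, minus strand: agcgcgcagctggcagcggtggttg

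A tract, counted as a C at the start and at least 4 further C or T, was present in 19 of the 25 small-subunit genes with a sequence (76%), against 6.31% of 14746 coding genes. Any annotated start sufficed: RPS27A has 3 and RPS19 has 2, and 1 start of each holds a tract, for RPS19 the one shown. It was 6 to 14 bases long, with a median of 9. The 6 genes without it at the annotated base were RPS4X, RPS7, RPS15, RPS26, RPS28 and RPS29. Allowing the tract to begin anywhere in the 25 bases shown raised the count to 23 of 25 (92%), against 41.4% of coding genes. Many genes meet this looser rule, and whether the annotated base was misplaced for any member was not tested. Large-subunit genes had a tract as often, in 27 of 37 (73.0%). In the window from 250 bases before to 50 bases after the start, searched on both strands, CTTCCG was found in 18 of 25 genes (72%), against 30.2% of coding genes. TATAAA was found in 2 (8%), against 12.2%, AAGATGG in 4 (16%), against 8.02%, and GGGCGG in 16 (64%), against 65.4%. Of the large-subunit genes 21 of 37 (56.8%) held CTTCCG and 5 of 37 (13.5%) held AAGATGG. RPS2, RPS15A and RPS20 were not in these counts. A match describes letters only.

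The targeted gene went against the label. NAT10 had 0, 28.1 and 31.4 FPKM in the libraries labelled shNAT10, against 1.24, 3.95 and 2.89 FPKM in the shNC libraries, where FPKM is fragments scaled by gene length and library depth. It lay above every shNC library in 2 of the 3 libraries labelled shNAT10 and below every one in the other, a log2 difference of 1.48 with a standard error (SE) of 1.86 (limma, adjusted p = 0.754; exact two-sided permutation p = 0.4, where 0.1 is the smallest that 3 against 3 allows). The libraries are therefore called by their labels throughout, and every direction below is that of the label.

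The libraries also differed in depth. The fragment total behind the FPKM scale was 1197889 to 1498313 in the libraries labelled shNAT10, against 3284599 to 3426872 in shNC, and 6348 to 8117 genes were above 0, against 8340 to 8682. Epithelial markers were at or above a mean of 1 FPKM for 13 of 14 genes, with sums of 8253 to 8741 FPKM in the libraries labelled shNAT10, against 5308 to 5455 in shNC. Of 11 fibroblast and muscle markers 4 were, with sums of 28 to 77.2 FPKM, against 6.63 to 14.6, and THY1 was listed at 0. None of 9 leukocyte, 7 endothelial or erythroid, or 5 neural markers were (0 of each), and their sums stayed at or below 3.29 FPKM. The part of these differences in depth and markers in the results below was not tested. In bulk RNA, fewer cells of a kind and less RNA per cell cannot be told apart.

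The genes lay on 16 chromosomes, with 5 on chromosome 19. In all 6 libraries 26 of 28 were above 0, 17 had a mean of at least 100 FPKM, and 9 a mean from 10 to 100. Their order was similar in every library. Spearman's rho between libraries over 27 genes was 0.62 to 0.78 among the libraries labelled shNAT10, 0.76 to 0.87 among shNC, and 0.66 to 0.77 between hairpins, as a description across genes that share each library's depth.

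**Figure D1:**
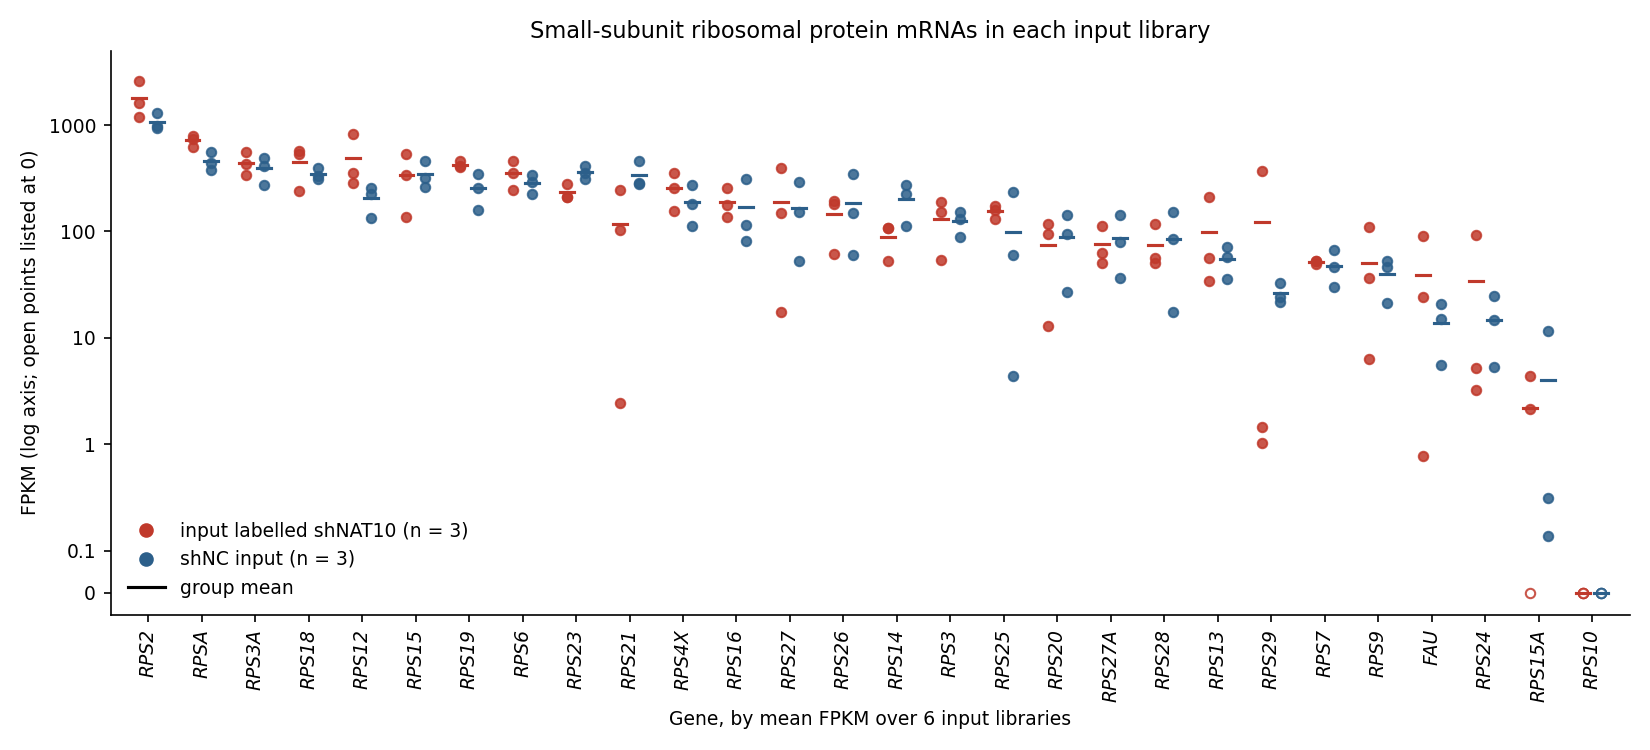
FPKM of each small-subunit gene on a log axis, with a point for each of the 3 libraries labelled shNAT10 and the 3 labelled shNC, in order of mean level. RPS2 was highest in every library, with 1190 to 2625 FPKM in the libraries labelled shNAT10, against 934 to 1305 in shNC. RPS29 and RPS21 spread widely, from 1.03 to 366 and from 2.45 to 464 FPKM over the 6 libraries.

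The genes were compared by role, starting with RPS2, RPSA and RPS21. In yeast the counterparts of these 3 proteins sit together on the subunit and assemble as a cluster. RPS2, at the mRNA entry, was the most abundant member in all 6 libraries. It had 2625, 1613 and 1190 FPKM in the libraries labelled shNAT10, against 974, 934 and 1305 FPKM in shNC. The means were 1809 ± 737 and 1071 ± 203 (SD, n = 3 each), and the ranges overlapped, since the lowest library labelled shNAT10 was under the highest shNC library. The log2 difference was 0.69 (SE 0.43, 95% interval -0.15 to 1.54; limma, adjusted p = 0.754 over 10517 genes). It was 0.39 without shNAT10 replicate 1 and 0.42 on the TPM scale.

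RPSA, a ribosomal protein that is also known as a laminin receptor, followed with 627, 744 and 796 FPKM in the libraries labelled shNAT10, against 562, 382 and 441 FPKM in shNC. Every library labelled shNAT10 was above every shNC library, a difference of 0.66 (SE 0.60, -0.53 to 1.84; limma, adjusted p = 0.754) that was 0.27 under quantile normalization. RPS21 ran the other way. It had 244, 104 and 2.45 FPKM in the libraries labelled shNAT10, against 286, 464 and 278 FPKM in shNC, and the groups did not overlap. The lowest value rested on 3 fragments, while the other libraries labelled shNAT10 had 347 and 159 and the shNC libraries 975 to 1558. Its difference of -2.91 (SE 1.06, -4.99 to -0.82) had the lowest p of the 27 genes tested, 0.00664 before adjustment by limma and 0.720 after it. The SD of RPS21 within groups was 2.32 on the log2 scale, 3.26 in the libraries labelled shNAT10 and 0.41 in shNC. Here limma drew the variance down towards those of genes at a similar level, so this p does not rest on the replicates of RPS21 alone. Without shNAT10 replicate 3 the difference was -1.06, and without the 2 libraries labelled shNAT10 in which NAT10 was high it was -0.45.

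The proteins of the decoding centre and of the contacts with mRNA and tRNA came next. RPS23, whose hydroxylated proline points into the decoding centre, had 210, 277 and 211 FPKM in the libraries labelled shNAT10, against 310, 414 and 353 FPKM in shNC. It was lower in every library labelled shNAT10, by a log2 difference of -0.63 (SE 0.78, -2.15 to 0.90; limma, adjusted p = 0.754). RPS23 had among the smallest spread within groups of all members, an SD of 0.22 on the log2 scale, yet its SE was large because limma draws each gene's variance towards the variances of genes at a similar level (212.6 prior degrees of freedom). RPS15, whose tail reaches the decoding site, had 533, 137 and 341 FPKM in the libraries labelled shNAT10, against 262, 463 and 321 FPKM in shNC, and the ranges overlapped. RPS16, whose tail touches the tRNA, had 176, 136 and 257 FPKM, against 116, 315 and 81.9 FPKM in shNC, also overlapping. RPS3, at the mRNA entry channel, had 153, 188 and 53.8 FPKM, against 153, 88.7 and 131 FPKM in shNC. The differences of these last genes were -0.21 for RPS15, 0.34 for RPS16 and -0.06 for RPS3, each smaller than its SE of 0.75, 0.94 and 1.04.

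In the head of the subunit, RPS19 and RPS12 were higher in every library labelled shNAT10. RPS19, the gene most often mutated in Diamond-Blackfan anaemia, had 460, 414 and 403 FPKM in the libraries labelled shNAT10, against 256, 347 and 158 FPKM in shNC. The means were 426 ± 30.0 and 254 ± 94.97 (SD, n = 3 each), so the spread was smaller in the libraries labelled shNAT10, and the log2 difference was 0.82 (SE 0.75, -0.66 to 2.29; limma, adjusted p = 0.754). Without shNC replicate 3 it was 0.51. RPS12, a protein of the beak of the head, had 827, 286 and 352 FPKM, against 256, 227 and 132 FPKM in shNC. Its difference was 1.14 (SE 0.77, -0.38 to 2.66; limma, adjusted p = 0.754), and it was 0.68 without shNAT10 replicate 1. Its lowest value in the libraries labelled shNAT10 was close to the highest in shNC. RPS18, also in the head, had 575, 529 and 239 FPKM, against 333, 397 and 312 FPKM in shNC, with the lowest of the 6 values in shNAT10 replicate 3. Its difference of 0.27 (SE 0.70) was -0.0010 on the TPM scale, which divides each library by its sum of FPKM.

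RPS25, needed for initiation at several viral internal ribosome entry sites, had the largest positive difference, 1.87 (SE 1.18, -0.46 to 4.19; limma, adjusted p = 0.754). It had 132, 160 and 172 FPKM in the libraries labelled shNAT10, against 59.8, 4.33 and 233 FPKM in shNC. The libraries labelled shNAT10 lay close together, and the shNC libraries ranged over 53.7-fold. The 4.33 FPKM of shNC replicate 2 came from 21 fragments, and without that library the difference was 0.37. RPS20, a head protein that ZNF598 ubiquitinates on collided ribosomes, had 95.2, 12.9 and 117 FPKM, against 26.8, 95.4 and 142 FPKM in shNC, and its difference was -0.43 (SE 1.25). The ranges of both genes overlapped.

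RPS29, a small zinc-binding protein of the head, had the widest range among the libraries labelled shNAT10. It had 366, 1.44 and 1.03 FPKM in them, against 21.7, 33.0 and 24.0 FPKM in shNC. The fragments behind these values were 4960, 21 and 12, against 714, 1055 and 802. By FPKM the highest library held 356 times the lowest in the libraries labelled shNAT10, against 1.52 times in shNC. The high library was shNAT10 replicate 1, the one in which NAT10 was at 0. The difference of -1.14 (SE 1.65, -4.40 to 2.13; limma, adjusted p = 0.798) was -3.59 without that library, 0.03 without shNAT10 replicate 2 and 0.16 without shNAT10 replicate 3. Copies of RPS29 were high in single libraries, RPS29P17 with 261 FPKM in shNAT10 replicate 2, where RPS29 had 1.44, and RPS29P16 with 441 FPKM in shNC replicate 1, where it had 21.7. With the copies added to RPS29 the difference was -0.33, so its level in those libraries is uncertain.

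On the platform, RPS14 was lower in every library labelled shNAT10. RPS14, a gene lost in the 5q- syndrome, had 107, 52.6 and 108 FPKM, against 274, 112 and 226 FPKM in shNC. The means were 89.1 ± 31.6 and 204 ± 82.9 (SD, n = 3 each), a log2 difference of -1.16 (SE 1.02, -3.16 to 0.84; limma, adjusted p = 0.754). The highest library labelled shNAT10 lay just under the lowest shNC library. RPS3A had 337, 554 and 434 FPKM, against 274, 415 and 485 FPKM in shNC, with a difference of 0.18 (SE 0.68). RPS26, at the mRNA exit, had 61.9, 193 and 181 FPKM, against 59.6, 347 and 150 FPKM in shNC, with a difference of -0.17 (SE 1.00). Neither RPS3A nor RPS26 separated the groups. RPS28, also near the exit, had 50.6, 55.7 and 118 FPKM, against 84.3, 17.4 and 151 FPKM in shNC.

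Among the proteins of the body, RPS6 is the substrate of S6 kinase, the kinase downstream of mTOR. It had 354, 247 and 456 FPKM in the libraries labelled shNAT10, against 336, 295 and 226 FPKM in shNC, an overlapping difference of 0.28 (SE 0.75). RPS4X, encoded on the X chromosome, had 257, 353 and 156 FPKM, against 271, 113 and 183 FPKM in shNC, a difference of 0.44 (SE 0.87) that was 0.12 without shNC replicate 2. RPS7, which also binds the p53 regulator MDM2, was the steadiest member in the libraries labelled shNAT10. It had 49.9, 53.1 and 53.1 FPKM there, against 30.1, 45.9 and 66.4 FPKM in shNC, and its variance in the libraries labelled shNAT10 was 0.494 times that of counting alone. RPS9 had 36.9, 109 and 6.30 FPKM, against 21.1, 53.2 and 46.2 FPKM in shNC. RPS13 had 56.0, 209 and 34.0 FPKM, against 35.8, 57.7 and 71.6 FPKM in shNC. For both of these the highest library was shNAT10 replicate 2 and the lowest shNAT10 replicate 3.

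RPS24 and RPS15A were the lowest members above 0. RPS24 had 93.5, 5.20 and 3.25 FPKM in the libraries labelled shNAT10, against 14.6, 5.30 and 24.6 FPKM in shNC, and its highest library was again shNAT10 replicate 1. RPS15A had 0, 4.40 and 2.12 FPKM, against 0.310, 0.137 and 11.5 FPKM in shNC, from 0, 44 and 17 fragments and 7, 3 and 263 fragments. The shNC mean rested on 1 library, and the libraries labelled shNAT10 included one at 0. The length that the authors' values imply for RPS15A, the bases by which fragments were divided, was 6679, and that for RPS29 was 9743, against 767 for RPS12 and 1023 for RPS21.

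Of the remaining genes, RPS27A is made as a fusion to ubiquitin and had 112, 63.1 and 50.9 FPKM in the libraries labelled shNAT10, against 80.4, 36.3 and 143 FPKM in shNC. FAU is made as a fusion of a ubiquitin-like protein to RPS30 and had 0.780, 90.7 and 24.4 FPKM, against 20.7, 5.61 and 15.02 FPKM in shNC. The low FAU value in shNAT10 replicate 1 came from 2 fragments, against 251 in shNAT10 replicate 2. RPS27, a zinc-finger protein, had 395, 150 and 17.6 FPKM, against 291, 53.1 and 153 FPKM in shNC. The ranges of all 3 genes overlapped.

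RPS10, which ZNF598 also ubiquitinates, was listed at 0 in all 6 libraries and was not tested. It lies at chr6:34417454-34426069 (GRCh38). The readthrough gene RPS10-NUDT3, at chr6:34287194-34426069, covers it and was likewise listed at 0 in all 6. The authors' deposited table lists a peak under RPS10-NUDT3 at chr6:34287903-34288232 (fold 144, log2 fold change 4.62), which lies inside NUDT3 and outside RPS10. RPS10 is an essential part of the subunit in textbook accounts. Whether its fragments failed to be assigned was not tested, and the listing is not read here as absence of its mRNA.

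Across the set, limma called 0 of 27 tested genes at an adjusted p under 0.05, against 0.190% of all 10517 genes tested (0.0856% higher and 0.105% lower in the libraries labelled shNAT10, 20 genes in all, none of them among the 8140 coding genes tested). At an unadjusted p under 0.05 it was 1 of 27, RPS21, against 3.70% of all genes. The adjusted p of the members ran from 0.720 to 0.999. The 95% intervals reached from 0.841 either side of the difference for RPS2 to 3.50 for RPS15A, with a median of 2.05. The whole interval spanned more than 2 log2 units for 26 of 27 genes, so by limma a difference of 1 on the log2 scale lay within the error. That error rests mostly on the variances of other genes at a similar level (212.6 prior degrees of freedom), and less on the members' own replicates. RPSA had an SD within groups of 0.23 on the log2 scale beside an SE of 0.60. For RPS7 the SD was 0.40 and the SE 1.32.

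**Figure D2:**
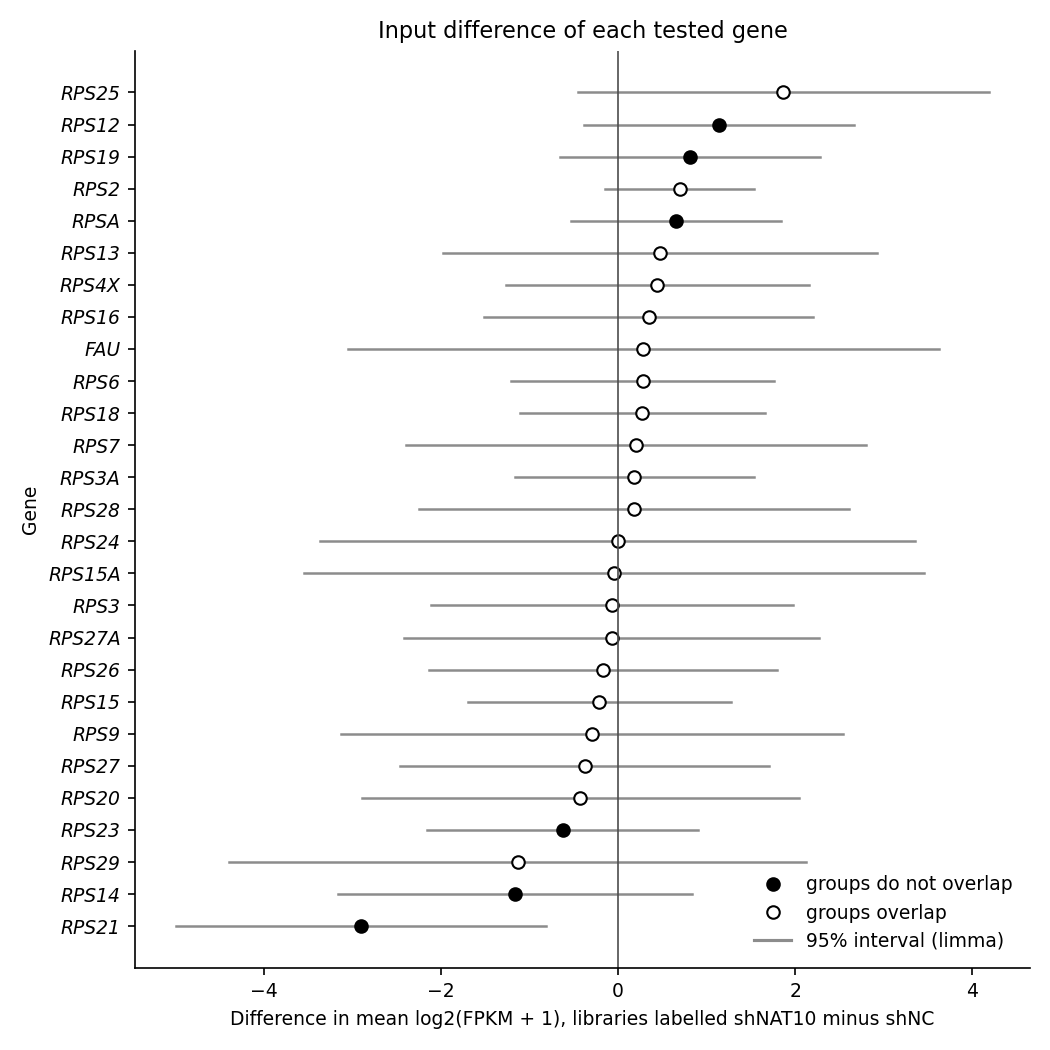
Log2 difference of each tested small-subunit gene, libraries labelled shNAT10 minus shNC, on log2(FPKM + 1), with 95% intervals from limma, in order of the difference. The interval of RPS21 (-4.99 to -0.82) alone leaves out 0, and no gene passed the adjusted threshold. For RPS21 limma drew the variance down towards those of genes at a similar level, so the interval is narrower than its own replicates would give.

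The differences lay on both sides of 0, with 14 genes above and 13 below, while 41.2% of all genes tested and 59.1% of coding genes with at least 50 FPKM lay above 0. Their median was 0.18, against -0.49 over all genes tested and 0.23 over the 477 coding genes with a mean of at least 50 FPKM. The member median turned to -0.091 on the TPM scale and -0.01 with pseudogene values added, -0.062 under quantile normalization, 0.043 with a pseudocount of 0.1 and 0.0093 without shNC replicate 2. The median of all genes moved to -0.74 on the TPM scale and -0.08 under quantile normalization. The groups did not overlap for 6 of 27 genes (22.2%), with RPSA, RPS12 and RPS19 higher and RPS21, RPS14 and RPS23 lower in every library labelled shNAT10. Over all genes tested the share was 9.61% (2.89% higher and 6.72% lower), and over coding genes with at least 50 FPKM it was 13.6%. The large-subunit genes had 27 of 44 above 0, a median of 0.16, and 5 of 44 (11.4%) with groups that did not overlap. The medians of both subunits were close, and each had 0 calls and 1 gene at an unadjusted p under 0.05.

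**Figure D3:**
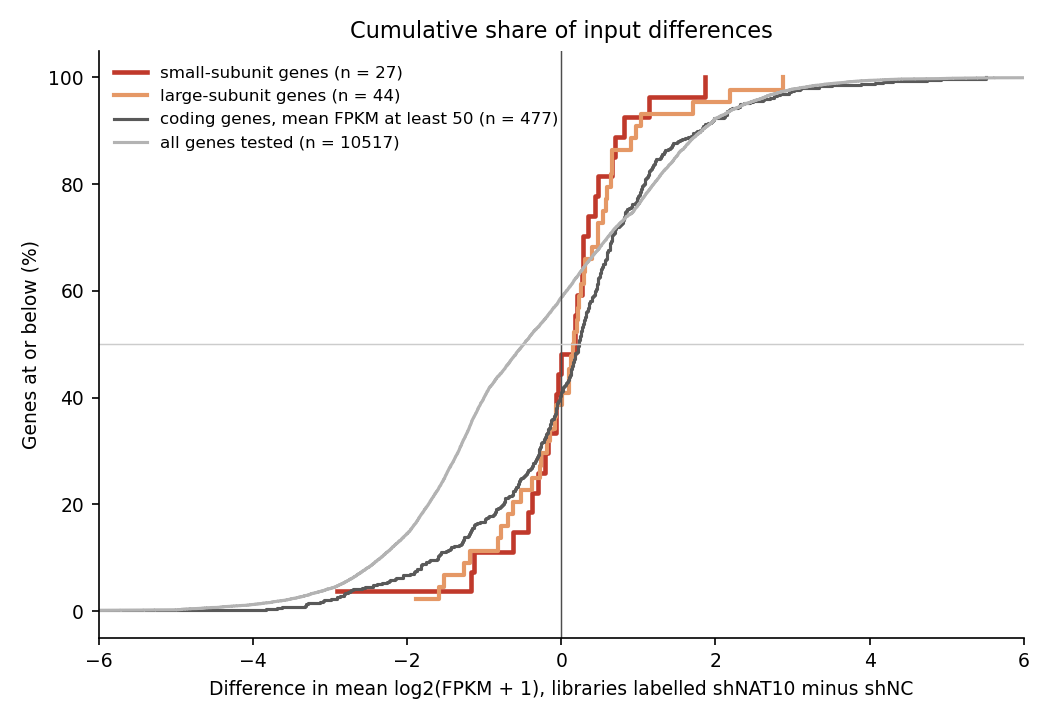
Distribution of the log2 difference, libraries labelled shNAT10 minus shNC, for small-subunit genes, large-subunit genes, coding genes with a mean of at least 50 FPKM and all genes tested. The medians were 0.18, 0.16, 0.23 and -0.49, so the medians of the ribosomal protein genes lay near that of abundant coding genes.

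The spread within groups was below that of most genes. The members' pooled SD on the log2 scale had a median of 0.779 and ran from 0.219 for RPS23 to 3.02 for RPS29. It was 0.819 for large-subunit genes, 1.01 for coding genes of at least 50 FPKM and 1.74 for all coding genes tested. By hairpin the members' median SD was 0.696 in the libraries labelled shNAT10, against 0.573 in shNC. The variance of fragments between replicates was over 10 times that of counting for 25 of 27 genes in the libraries labelled shNAT10, against 27 of 27 in shNC, a ratio that grows with depth.

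Summed over the members, the libraries labelled shNAT10 held 8933, 6743 and 5779 FPKM, against 5410, 5720 and 5864 FPKM in shNC. The means were 7152 ± 1616 and 5665 ± 232 (SD, n = 3 each), with the lowest library labelled shNAT10 inside the shNC range. As a share of all FPKM the sums were 1.55%, 1.21% and 0.811%, against 1.05%, 1.07% and 1.25% in shNC, so shNAT10 replicate 3 was the lowest of all 6. RPS2 alone made 29.4%, 23.9% and 20.6% of the member sum, against 18.0%, 16.3% and 22.2% in shNC. The ratio of small-subunit to large-subunit sums was 0.997, 0.821 and 0.631, against 0.623, 0.755 and 0.711 in shNC. None of these sums separated the hairpins.

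**Figure D4:**
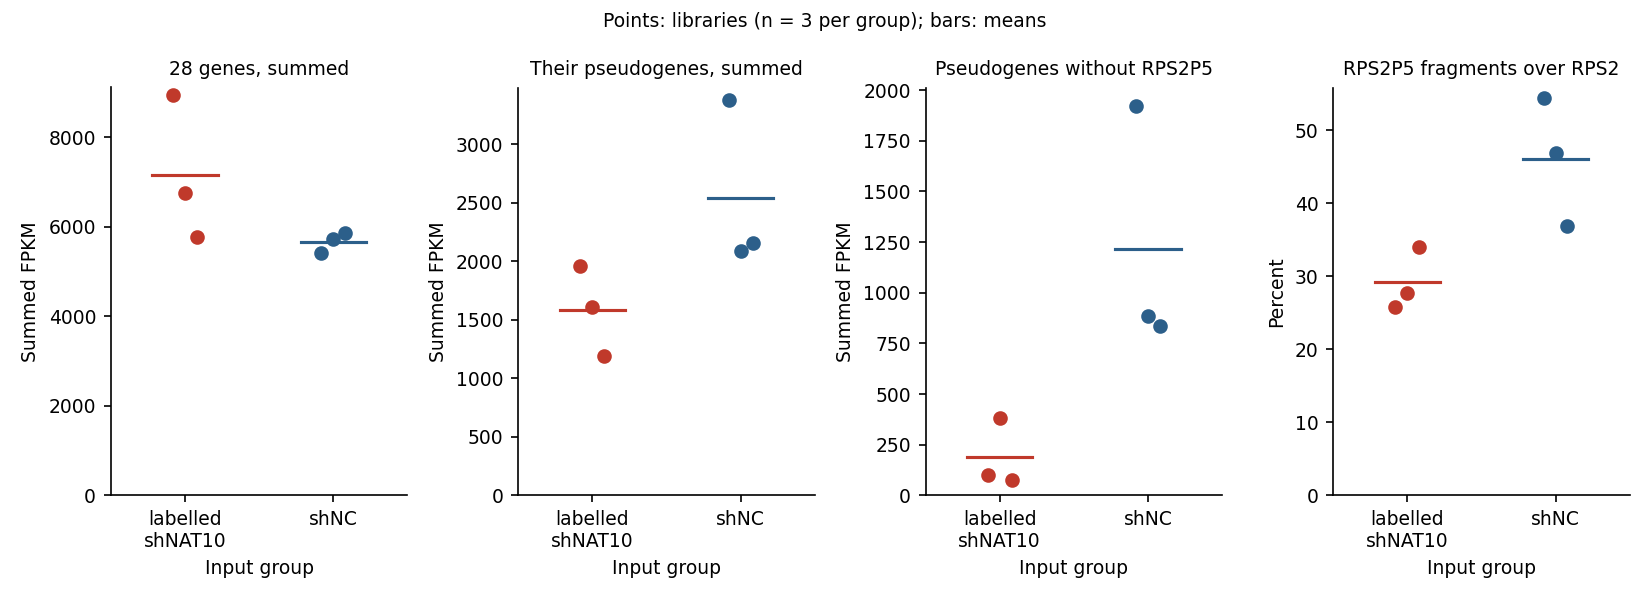
Values per library, with the libraries labelled shNAT10 left of shNC. The panels show summed FPKM of the small-subunit genes, of their pseudogenes, and of the pseudogenes without RPS2P5, a copy of RPS2. The last panel shows RPS2P5 fragments as a percent of RPS2 fragments. Without RPS2P5 the pseudogene sum was 77.6 to 383 FPKM in the libraries labelled shNAT10, against 836 to 1921 in shNC.

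Ribosomal protein genes have many processed pseudogenes, nearly identical copies to which an aligner may assign the same fragments. The sources do not say how shared fragments were counted, so the levels of parents and copies are uncertain. The table listed 395 pseudogenes of the members. Of these 50 were above 0 in some library, 8 in all 6 and 26 in a single library. Of the 21 with a mean of at least 1 FPKM, limma called 0. Their sum was 1959, 1609 and 1190 FPKM in the libraries labelled shNAT10, against 3376, 2087 and 2158 FPKM in shNC. As a percent of the members' own sum this was 21.9, 23.9 and 20.6, against 62.4, 36.5 and 36.8 in shNC, and the groups did not overlap.

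A single copy, RPS2P5, made 94.8%, 76.2% and 93.5% of the pseudogene sum in the libraries labelled shNAT10, against 43.1%, 57.5% and 61.2% in shNC. RPS2P5 had 1856, 1225 and 1112 FPKM in the libraries labelled shNAT10, against 1455, 1201 and 1322 FPKM in shNC, a log2 difference of 0.04 (SE 0.43). Its fragments were 25.8%, 27.7% and 34.1% of those of RPS2 in the libraries labelled shNAT10, against 54.4%, 46.8% and 36.9% in shNC. With the pseudogenes added to the parent, the difference of RPS2 was 0.37 in place of 0.69. Without RPS2P5 the pseudogene sum was 77.6 to 383 FPKM, against 836 to 1921 FPKM in shNC.

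The rest lay mainly in copies seen in some libraries and not in others. RPS28P7 had 0, 28.6 and 3.98 FPKM in the libraries labelled shNAT10, against 1312, 0 and 546 FPKM in shNC (difference -4.08, SE 1.64; limma, adjusted p = 0.754). RPS21P4 was listed at 0 in every library labelled shNAT10, against 14.3, 653 and 0 FPKM in shNC. In a library where these copies were high they exceeded their parents, as a copy did for 5 members. Adding them turned the difference of RPS28 to -1.68 in place of 0.18, and that of RPS21 to -3.35. RPS23P8, chosen after its values were seen, had 30.5, 26.3 and 27.8 FPKM in the libraries labelled shNAT10, against 70.8, 113 and 53.1 FPKM in shNC, and lay on the same side as RPS23 itself.

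Genes that build or use the subunit were then described by lists of known function. Of 40 tested assembly factors of the small subunit, 14 were above 0 and 26 below, with a median of -0.70 and 0 called. LTV1, a factor of late maturation, was listed at 0 in every library labelled shNAT10, against 8.64, 5.11 and 23.2 FPKM in shNC. Of 26 translation initiation factors, which load the subunit onto mRNA, 6 were above 0 and 20 below, with a median of -1.32, 0 called and 1 at an unadjusted p under 0.05. EIF1, which guards start-codon choice, had 21.7, 0.921 and 0.691 FPKM, against 58.8, 82.5 and 26.6 FPKM in shNC (difference -3.62, SE 1.68; limma, adjusted p = 0.754). The median of all genes tested was -0.49, and no test compared the lists.

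Of 12 tested proteins tied to the small subunit in other ways, such as its kinases and ligases, 6 were above 0 and 6 below, with a median of 0.07. ZNF598, the ligase of collided ribosomes, had the largest difference there, -2.41. Of 8 transcription factors of ribosomal protein genes 1 was above 0 and 7 below, with a median of -0.91, and YY1 had the largest difference, -2.40. It had 0.0825, 0.765 and 0 FPKM in the libraries labelled shNAT10, against 8.34, 0.314 and 21.7 FPKM in shNC, and the ranges overlapped. Of 10 host genes of small nucleolar RNAs 3 were above 0 and 7 below, with a median of -0.48, and SNHG6, at -3.47, differed most. SNHG6 was listed at 0 in every library labelled shNAT10, against 0, 167 and 7.02 FPKM in shNC. Without shNC replicate 2 its difference was -1.50. In the large subunit RPL26 differed most, at 2.88, with 2.33, 119 and 0.675 FPKM in the libraries labelled shNAT10, against 0.359, 0.246 and 0 FPKM in shNC, so 1 library decided it. In these lists limma again called 0 genes at an adjusted p under 0.05.

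Small nucleolar RNAs, guides of rRNA modification, are made from introns of some of these genes. RefSeq places 14 inside 7 of the members, 11 of them had a single row in the table, and 4 were above 0. SNORD15B, inside RPS3 and chosen after its values were seen, had 143, 279 and 274 FPKM in the libraries labelled shNAT10, against 68.8, 91.8 and 77.9 FPKM in shNC. Its groups did not overlap, with a difference of 1.48 (SE 1.00; limma, adjusted p = 0.754), while those of its host RPS3 did.

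The authors' deposited table of differential ac4C peaks held 2364 peaks and named 1930 genes. Of these 6 peaks lay in 4 of the members, RPS19, RPS29, RPS4X and RPS6, and 24 members had none listed. The table gives a fold enrichment and the log2 fold change between hairpins for each peak as the authors' own values, and does not state which hairpin was the numerator, so the signs below have no direction. Positions are in GRCh38, counted from 1.

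RPS19 had both of its peaks in the 3′UTR by the authors' annotation. The peak at chr19:41871758-41871968, plus strand, had a fold enrichment of 26.2 in the authors' deposited table, with a log2 fold change of -3.48 at an FDR of 0.0407. It was the only member peak with the authors' motif of spaced cytidines, at 2 sites, 41871762 and 41871933. The peak at chr19:41872027-41872327 followed, with a fold of 7.72, a log2 fold change of -3.83 and an FDR of 0.00115 in the authors' deposited table. They ended 957 and 598 nt before the 3′ end of the RefSeq gene.

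RPS29 had the highest fold of the members. The peak at chr14:49572001-49572240, minus strand, was annotated to the 3′UTR and had a fold of 2120, rank 4 of 2364, with a log2 fold change of -8.8 at an FDR of 0.0263 in the authors' deposited table. This gene also had 1.03 to 366 FPKM in the input libraries labelled shNAT10, against 21.7 to 33.0 FPKM in shNC. Whether the input level moved the fold was not tested.

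RPS4X had 2 exonic peaks of opposite sign. The peak at chrX:72272769-72273818, minus strand, joined 3 blocks that cover 180 of 1050 nt, and had a fold of 2.47 with a log2 fold change of 6.77 at an FDR of 1e-150 in the authors' deposited table. The peak at chrX:72275100-72275612 joined 2 blocks that cover 120 of 513 nt, and had a fold of 1.99 with a log2 fold change of -2.96 at an FDR of 0.0331 in the authors' deposited table. RPS6 had a peak in the coding sequence at chr9:19376341-19376655, minus strand, in 2 blocks that cover 210 of 315 nt, with a fold of 2.97 and a log2 fold change of -0.724 at an FDR of 3.98e-29 in the authors' deposited table. That change was near the smallest of the table, rank 2335 of 2364 by size.

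**Figure D5:**
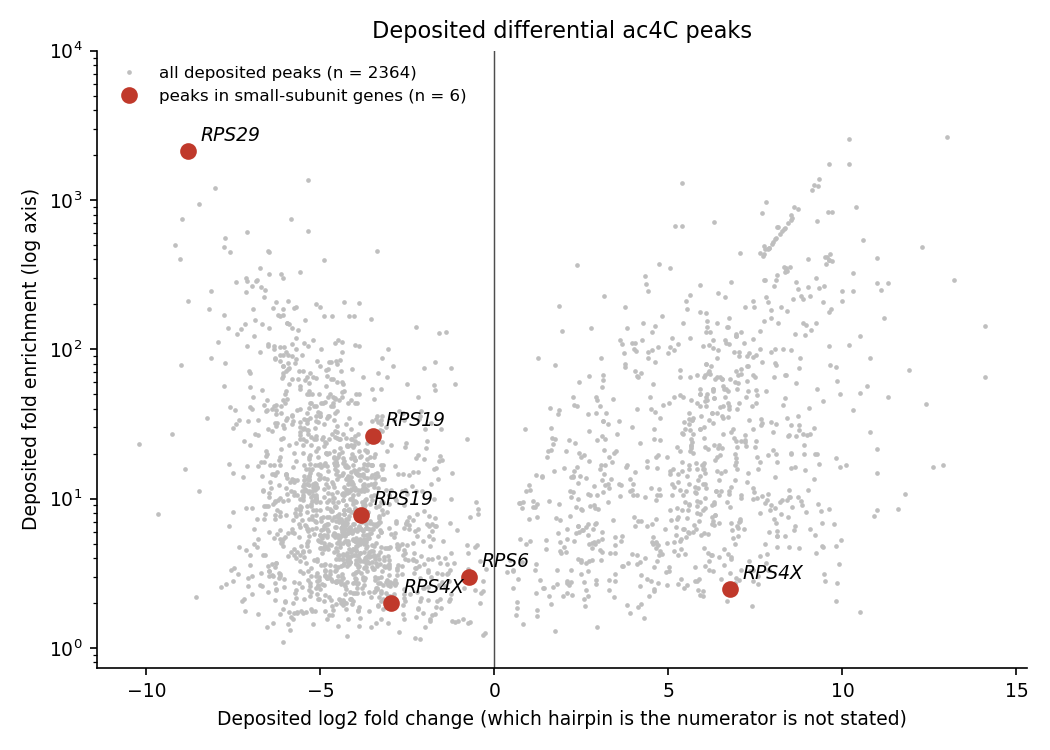
Fold enrichment (log axis) against the log2 fold change between hairpins for all 2364 peaks of the authors' deposited table, with the 6 peaks in RPS19, RPS29, RPS4X and RPS6 named. The sign has no stated direction; 5 of the 6 lie below 0, as do 61.7% of all peaks and 11 of 12 in large-subunit genes, and the RPS29 peak has the highest fold of the 6.

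The members' share with a listed peak was near or below the background. A peak was listed for 4 of 27 (14.8%), against 19.1% of 8140 coding genes with a mean of at least 1 FPKM. Among genes with at least 100 FPKM it was 3 of 17 (17.6%), against 24.2%, and with a differential FDR under 0.01 it was 3 of 27 (11.1%), against 15.9%. Of the large-subunit genes 11 of 44 (25%) had a peak. Of the 6 member peaks 3 were annotated to the 3′UTR (50%, against 21.3% of all peaks), 1 held the authors' motif (16.7%, against 62.6%), and the median fold was 5.35, against 10.5. With 6 peaks these shares describe the list and were not tested.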

How the data were processed

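RNA of DLD1 cells was measured in 6 input libraries as FPKM, which the authors deposited per gene, and 6 immunoprecipitated libraries entered through the authors' deposited peak table. Per the file headers that table gives a fold ratio, a p-value, log10 scores, a log2 fold change and other annotation for each peak. Per the submitters' processing notes cutadapt 2.5, HISAT2 2.1.0 and HOMER 4.10.4 were used, with the builds GRCh38 and GRCm38. These sources name no counting tool. Columns named sh were taken as shNAT10 inputs by elimination.

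Differences were tested with limma 3.58.1 in R 4.3.3 (lmFit, then eBayes with a variance trend) for the 10517 genes that averaged 1 FPKM or more, as log2(FPKM + 1), Benjamini-Hochberg adjusted over all of them. This scale understates changes of low genes. Fragments were recovered from the steps of FPKM, with depth from 9 mitochondrial mRNAs (8 in shNAT10 replicate 2, where 1 was at 0); 4 more came out whole within 0.01 in all 6 libraries. Gene lengths were sought to make values whole, so wholeness of other genes is no check. The method was tested on simulated data. Fragments served for description only.

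The members and gene lists were chosen with earlier results of these data known. Genes described in full were, by rule, the 5 highest, the 3 lowest, the 5 largest differences each way, those with a peak and those listed at 0; other members were then added. Replicate numbers did not pair the libraries (correlations 0.0012, -0.0214 and 0.0146). Alternatives were another pseudocount, filter, scaling, normalization, robust variances, a replicate block and each library left out. After the data were seen 2 more were added, without the libraries labelled shNAT10 with high NAT10, and with pseudogene values summed into the parent.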

Additional observations from a re-analysis of the deposited data

How the results depend on the processing

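No alternative called a member at an adjusted p under 0.05, and 9 of 27 members kept their direction under all 16. The number of genes called, 20, was 0 with no filter (340 at an unadjusted p under 0.05), 10 with a mean of at least 5 FPKM, 1 to 34 with 1 library left out, and 0 without both libraries labelled shNAT10 in which NAT10 was high (1139 at an unadjusted p under 0.05). It was 26 with a pseudocount of 0.1, 21 in TPM, 16 with median ratio scaling, 23 with quantile normalization and 17 with robust variances. A replicate block called 21 genes (408 at an unadjusted p under 0.05, against 389) and 0 members, and left the member median at 0.18; it changed the call of no member. The member median was -0.091 on the TPM scale. Without both libraries with high NAT10, the NAT10 difference was -1.81. Where values moved, the cause was not tested. RPS21, FAU and RPS15A had 3, 2 and 0 fragments in 1 library labelled shNAT10 each, which limits their values.

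Directions turned as follows. On the TPM scale RPS7 was -0.070, RPS3A -0.091, RPS18 -0.0010, FAU -0.065 and RPS28 -0.084. With median ratio scaling RPS24 was 0.0038. With quantile normalization RPS3A was -0.15, RPS18 -0.062, RPS6 -0.069, RPS24 0.65 and RPS15A 0.54. With pseudogenes added RPS28 was -1.68. Without both libraries with high NAT10, which leaves a single library labelled shNAT10 assumed to vary like the others, RPS27 was 1.56, RPS27A 0.58, RPS3A -0.18, RPS20 0.41, FAU -2.89, RPS3 0.33, RPS24 2.80, RPS29 3.78, RPS15 0.65 and RPS28 -0.27. With 1 library left out, the difference ran from -0.97 to 1.87 for FAU, -0.27 to 1.02 for RPS13, -0.65 to 0.33 for RPS15, -0.66 to 1.07 for RPS15A, -0.060 to 0.90 for RPS16, -1.12 to 0.55 for RPS20, -1.41 to 0.83 for RPS24 and -0.81 to 0.45 for RPS26. It ran from -1.34 to 0.86 for RPS27, -0.58 to 0.39 for RPS27A, -0.69 to 0.83 for RPS28, -3.59 to 0.16 for RPS29, -0.41 to 0.48 for RPS3, -0.053 to 0.36 for RPS3A, -0.085 to 0.47 for RPS7 and -1.21 to 0.75 for RPS9. Among members that kept their sign it ran from 0.39 to 0.96 for RPS2, 0.68 to 1.44 for RPS12, 0.51 to 1.08 for RPS19, 0.12 to 0.76 for RPS4X, 0.37 to 3.10 for RPS25 and -4.14 to -1.06 for RPS21.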
